A study of Homo sapiens with 12 samples.

Results

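The nuclear-encoded respiratory chain genes were taken as every gene name in 6 peak lists that began with NDUFA, NDUFB, NDUFC, NDUFS, NDUFV, UQCR, COX4 to COX8 or ATP5, or that was SDHA, SDHB, SDHC or SDHD. The rule found 53 genes among the 10830 names in the lists, and it used the symbols alone. These genes carried 172 of the 101848 peaks. The same rule, applied to current and older symbols in GENCODE release 44, gave 98 annotated protein coding genes, so 45 relatives had no peak in any list. These 98 genes were the denominator of every share below, beside 20033 annotated protein coding genes in all.

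In RIP-seq, RNA is pulled down with a protein and sequenced, and the reads are set against those of the starting, or input, RNA. The series held 6 RIP samples and 6 inputs from HepG2, a cell line grown from a human liver cancer, with 2 RIP samples for each of METTL16, eIF3a and eIF3b. All cells were stable lines made by infection with 1 of the constructs pmiRNA1-3XFlag-METTL16, pSIN4-3XFlag-eIF3a or pSIN4-3XFlag-eIF3b, so each protein was tagged and overexpressed, and ultraviolet light was used on all of them to cross-link RNA to protein. METTL16 and eIF3b were pulled down with a Flag antibody and eIF3a, per the labels, with an antibody against eIF3a itself, although the deposited lists are named for Flag throughout, so the antibody and the protein cannot be told apart. METTL16 is an RNA methyltransferase, and eIF3a and eIF3b are subunits of the factor that brings the small ribosomal subunit to an mRNA. The study calls its replicates biological, but the labels do not say whether they came from separate cultures. A peak is a stretch of exon where RIP reads exceeded input reads, its fold enrichment is RIP over input, and bound genes are those with a peak in each of a protein's pair of lists. The lists hold no read counts, so the depth behind a peak is unknown.

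The respiratory chain sits in the inner mitochondrial membrane. Complexes I to IV pass electrons from NADH or succinate to oxygen, all but complex II pump protons as they do so, and complex V, the ATP synthase, uses the proton gradient to make ATP. A few subunits are encoded in mitochondrial DNA, but most are encoded in the nucleus, translated in the cytosol and imported, many of them from short and abundant mRNAs.

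The genes had short transcripts. The median canonical mRNA of the 98 genes was 801.5 bases, against 2885 bases for all protein coding genes, and their median coding sequence was 426 bases, against 1272. An mRNA of at most 1500 bases, called short below, was found in 66 of the 98 (67.3%) and in 20.6% of all protein coding genes. The 53 genes with a peak had a median mRNA of 1361 bases and the 45 without had 649 bases, and 39 of those 45 were short. The 13 members listed under older names are given here by their current symbols. ATP5F1A, ATP5F1B, ATP5F1C, ATP5F1D, ATP5F1E, ATP5PB, ATP5MC2, ATP5MC3, ATP5PD and ATP5MGL stood in the lists as ATP5A1, ATP5B, ATP5C1, ATP5D, ATP5E, ATP5F1, ATP5G2, ATP5G3, ATP5H and ATP5L2, and the readthrough gene ATP5MF-PTCD1 as ATP5J2-PTCD1. DMAC2L and DMAC2 stood there as ATP5S and ATP5SL, and their current names no longer place them in the ATP synthase.

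The start codons of these mRNAs are shown first, because peaks lay over 17 of them and because 2 sequences recurred there. The sequence AAGATGGC, which contains the start codon and is the core of the TISU element known from mRNAs with very short 5′ UTRs, stood at the start codon of 14 of the 98 genes (14.3%), against 2.63% of all protein coding genes and 2.09% of those with a short mRNA. The sequence ATGGCGGC, read from the start codon onward, stood in 14 of the 98 as well (14.3%), against 2.76% and 2.38%. The sense strand was read at the annotated start codon only, and both sequences overlapped in 6 genes. The following 30-base stretches are those of some members with a peak that carried one of them, with the sequence in capitals, and of NDUFC2, with the start codon in capitals. They were read 5′ to 3′ from GENCODE transcripts on GRCh38.
DMAC2, chr19:41439882-41439911, minus strand: aaccttagcAAGATGGCggctccctgggcg
NDUFB8, chr10:100529834-100529863, minus strand: aagaaggtgAAGATGGCggtggccagggcc
SDHC, chr1:161314394-161314423, plus strand: ccggaacccAAGATGGCtgcgctgttgctg
UQCRC1, chr3:48609603-48609632, minus strand: tgcagctggAAGATGGCggcgtccgtggtc
NDUFB11, chrX:47144662-47144691, minus strand: gcaccatctgtcATGGCGGCtgggctgttt
NDUFS3, chr11:47579080-47579109, plus strand: catctgagtaacATGGCGGCggcggcggta
NDUFC2, chr11:78079727-78079756, minus strand: aacggcgtcaccATGatcgcacggcggaac

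AAGATGGC stood in 5 of the 53 genes with a peak (9.43%) and in 9 of the 45 without. ATGGCGGC stood in 6 of the 53 (11.3%) and in 8 of the 45 (17.8%). Either sequence stood in 22 of the 98. Among the members with AAGATGGC, DMAC2 was bound by METTL16, and SDHC, a membrane anchor of complex II, by eIF3a and eIF3b. NDUFB8 and UQCRC1 were bound by none. The DMAC2 peaks lay at the stop codon and the SDHC peaks in or downstream of the 3′ UTR, so none of them covered AAGATGGC. The NDUFS3 peaks likewise lay downstream of its ATGGCGGC. A link between these sequences and the peaks was not tested. The sequence TACAGAGAA, the site known to be methylated by METTL16 in U6 RNA and MAT2A mRNA, stood in the sense strand of 2 of the 98 canonical mRNAs, those of NDUFAF5 and UQCRB, against 3.33% of all protein coding mRNAs, and in none of the 15 members bound by METTL16, against 3.14% of all genes bound by it.

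Stretches under peaks of genes bound by 1 or more proteins are shown next, as examples of the coding and UTR positions described below. Each is 30 bases at the centre of the peak with the smallest p of its gene, with coding bases in capitals and UTR bases in lower case. The last, in the 3′ UTR of ATP5PB, is the stretch common to peaks in 4 lists, and its middle 10 bases are in capitals. The peaks behind this stretch and those of DMAC2L and NDUFV3 were rich in repeated sequence (repeat-dense, as described below).
DMAC2L, chr14:50326079-50326108, plus strand: aattagctgaatgtggtggtgcacgccttt
NDUFV3, chr21:42909279-42909308, plus strand: ttacaggtactcaccaccaggtccagctaa
NDUFB11, chrX:47144487-47144516, minus strand: GGCAAGAGGACCCAGAACCCGAGGACGAAA
NDUFS1, chr2:206130130-206130159, minus strand: TTCTCCTGGGAGCAGATGGAGGTTGTATCA
ATP5F1B, chr12:56639170-56639199, minus strand: CAGCCATTCCAGGTTGCTGAGGTCTTCACA
NDUFC2, chr11:78079773-78079802, minus strand: gtggttttccttgtagttcgtggtctgaga
ATP5MC3, bases 158 to 187 of the mRNA, spanning 2 exons: CCCCTCTCTGATCCGAGCTGGATCCAGAGT
ATP5PB, bases 767 to 796 of the mRNA, spanning 2 exons: AGCAGGAAAAGGAGACAATTGCCAAGTGCA
ATP5PB, chr1:111461814-111461843, plus strand: ttgcttgaacGCAGGAGGCAaaggttgcag

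Over all 6 lists, respiratory chain genes carried a peak as often as protein coding genes in general, but a smaller share of them was bound by each protein. A peak in any list was found for 53 of the 98 (54.1%, 95% Wilson interval 44.2% to 63.6%), against 53.5% of all protein coding genes. METTL16 bound 15 of the 98 (15.3%), against 22.9% of all. eIF3a bound 6 (6.12%), against 22.8%. eIF3b bound 13 (13.3%), against 32.2%. Only DMAC2L had a peak in all 6 lists, against 13.6% of all protein coding genes. Of the 53 genes with a peak, 33 were bound by no protein and 20 by at least 1, against 7613 of 10712 protein coding genes with a peak. A single list held 22 of the 53 (41.5%), against 15.9% of all genes with a peak. Among short mRNAs with a peak, 8 of 27 members were bound by at least 1 protein, against 638 of 1235 genes. In that class 13 members stood in a single list, against 372 genes. Wilson intervals cover counting error only.

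The share of genes with a peak varied widely between replicates. METTL16 replicate 1 held 17 of the 98 (17.3%, interval 11.1% to 26.0%), against 28.9% of all protein coding genes, and replicate 2 held 37 (37.8%, interval 28.8% to 47.6%), against 31.4%. Over mRNAs of any length, METTL16 replicate 2 was the only list in which the members' share lay above that of all genes. eIF3a replicate 1 held 28 (28.6%, interval 20.6% to 38.2%), against 40.4%, and replicate 2 held 9 (9.18%, interval 4.91% to 16.5%), against 25.9%. The eIF3b replicates were alike, with 21 (21.4%, interval 14.5% to 30.5%), against 39.9%, and 22 (22.4%, interval 15.3% to 31.7%), against 37.5%. The METTL16 lists averaged 27.6% ± 14.4, the eIF3a lists 18.9% ± 13.7 and the eIF3b lists 21.9% ± 0.722 (SD, n = 2 each). The replicates of METTL16 and of eIF3a lay on both sides of those of eIF3b, and none of the 3 pairs of proteins differed beyond this spread (exact two-sided permutation p = 0.667, 1 and 1, with 0.333 the smallest value that 2 against 2 samples allow).

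The same split between replicates was seen in 2 other families of nuclear genes that encode the subunits of large complexes. The 78 mitochondrial ribosomal protein genes had 20 genes with a peak in METTL16 replicate 1 and 37 in replicate 2, and 22 and 11 in the eIF3a replicates. The 50 proteasome genes had 21 and 32, and 23 and 7. METTL16 bound 17 of the mitochondrial ribosomal protein genes and 20 of the proteasome genes, eIF3a bound 8 and 7, and eIF3b bound 19 and 18. The part of sample quality or depth in the split was not tested.

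**Figure D1:**
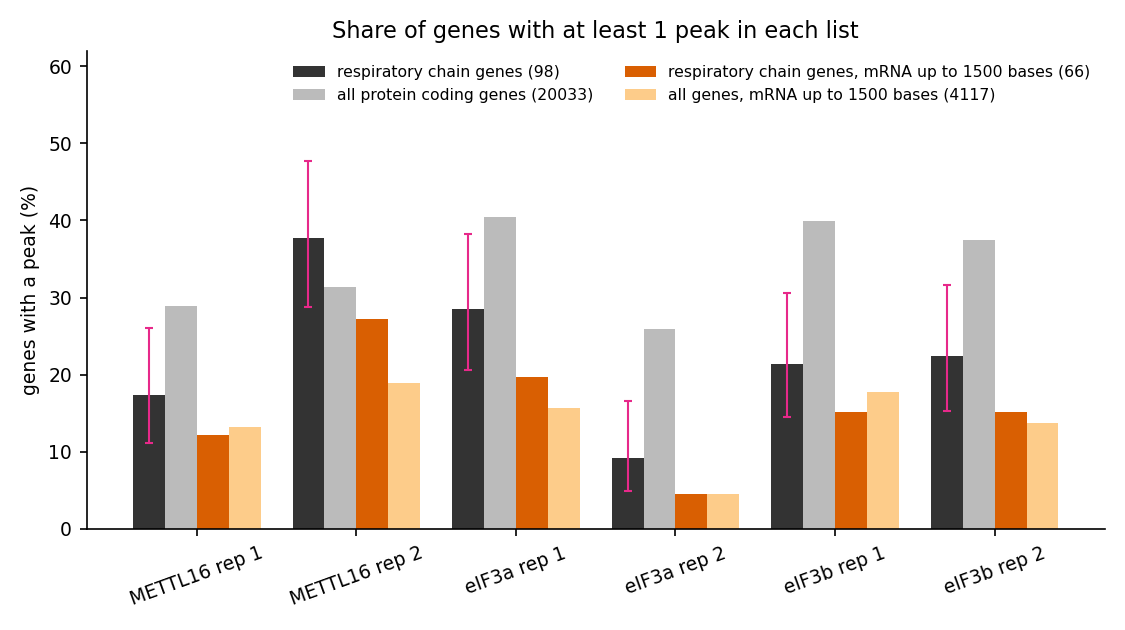
Share of genes with at least 1 peak (y axis, %) in each of the 6 lists (x axis), for the 98 respiratory chain genes, all 20033 protein coding genes, and the 66 and 4117 of each with an mRNA of at most 1500 bases. Bars are shares of genes, and error bars on the first series are 95% Wilson intervals. The respiratory chain share was below that of all genes in every list but METTL16 replicate 2 (37.8% against 31.4%).

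Transcript length moved with these shares. Among short mRNAs, 27 of 66 respiratory chain genes had a peak in any list (40.9%), against 1235 of 4117 short protein coding genes, and among longer mRNAs 26 of 32 did (81.2%), against 59.5%. Within short mRNAs the shares bound lay close to the background, at 9.09% against 10.6% for METTL16, 1.52% against 3.11% for eIF3a and 7.58% against 10.7% for eIF3b. Within longer mRNAs, METTL16 bound 28.1% against 26.0%, eIF3a 15.6% against 27.9% and eIF3b 8 of 32 against 37.7%. Per list, the short genes with a peak numbered 8, 18, 13, 3, 10 and 10 of 66 in the order METTL16, eIF3a and eIF3b, replicates 1 and 2 of each. These shares were 12.1% and 27.3%, 19.7% and 4.55%, and 15.2% and 15.2%, against 13.2% and 18.9%, 15.7% and 4.47%, and 17.8% and 13.8% of all short genes. Within short mRNAs the members' share was thus the higher in 4 of 6 lists, not in METTL16 replicate 2 alone.

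The counts per complex and role below stand beside these shares over all protein coding genes. A peak in any list was found for 53.5%, and METTL16, eIF3a and eIF3b bound 22.9%, 22.8% and 32.2%. The core subunits of complex I, which carry its flavin and iron-sulfur centres, numbered 7, and each protein bound 1 of them. NDUFS1, which carries several of the iron-sulfur clusters, was bound by eIF3a alone, and its eIF3a peaks did not share a position. Replicate 1 held a 180-base peak in the 3′ UTR at chr2:206123079-206123258 (4.96-fold), and replicate 2 a 358-base peak over 3 coding exons (2.13-fold). NDUFS3 and NDUFS8 were found in METTL16 replicate 2 only, NDUFV1 in METTL16 replicate 2 and eIF3b replicate 1, and NDUFV2 in eIF3a replicate 1 only.

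The accessory subunits of complex I, which surround the core, had a peak in 10 of 30 genes. NDUFB11, NDUFC2 and NDUFA1 were bound by METTL16, and NDUFB11, NDUFC2 and NDUFV3 by eIF3b, while eIF3a bound NDUFV3 only. NDUFB11, an X-linked gene of the membrane arm, had peaks in 5 lists that all overlapped near the 5′ end of its 586-base mRNA. Their fold enrichment was 1.97 and 5.72 in the METTL16 replicates, 2.55 in eIF3a replicate 1, and 1.45 and 1.62 in the eIF3b replicates, and 31 bases at chrX:47144619-47144649 were common to all of them. The METTL16 replicate 2 peak stood apart in width, at 473 bases over 3 exons, against 60 to 178 bases in the other lists. NDUFA1, with an mRNA of 421 bases, had a peak across its exon junctions in both METTL16 lists (1.53-fold and 1.69-fold), eIF3a replicate 1 (1.34-fold) and eIF3b replicate 2 (1.30-fold).

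NDUFC2, a membrane-arm subunit, was the accessory subunit with the most peaks, 12 in 5 lists, at 3 separate positions. The first was the first exon with the start codon, at 4.19-fold and 4.26-fold in the METTL16 replicates, 1.97-fold in eIF3a replicate 1, and 2.18-fold and 1.48-fold in the eIF3b replicates, and both METTL16 values lay above the other 3. The second, centred 864 to 924 bases after the stop codon, was found in METTL16 replicate 1 (6.24-fold), eIF3a replicate 1 (3.62-fold) and both eIF3b replicates (8.11-fold and 3.73-fold). The last position lay further downstream, at chr11:78068526-78068735. It held the highest value of any member, 34.4-fold in METTL16 replicate 1, against 4.22-fold in eIF3a replicate 1 and 5.10-fold in eIF3b replicate 1. No peak was found there in the other replicate of any protein. Every 3′ UTR peak of NDUFC2, the 34.4-fold peak included, was repeat-dense, as described below. The readthrough gene NDUFC2-KCTD14 shares the first exon, and its 5 peaks (1.50-fold to 4.26-fold) were the same signal counted under a second name.

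NDUFV3, an accessory subunit of the NADH-binding module, had a peak in all 4 eIF3 lists and in no METTL16 list. All 4 of these peaks were repeat-dense, as described below. The peak lay in the 3′ UTR, centred 273 to 317 bases after the stop codon, and 149 bases at chr21:42909249-42909397 were common to the 4 lists. Its fold enrichment was 4.81 and 3.85 in the eIF3a replicates and 7.78 and 5.09 in the eIF3b replicates. NDUFAF7, a methyltransferase needed for complex I assembly, was the other gene with peaks in all 4 eIF3 lists and no METTL16 list, at 2.29-fold to 4.12-fold, but its eIF3a replicate 2 peak lay in the coding sequence and the other 3 in the 3′ UTR. Its eIF3b replicate 1 peak was repeat-dense.

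The assembly factors of complex I help build the complex without staying in it. A peak was found in 6 of these 7 genes, against 53.5% of all protein coding genes, and METTL16 bound none of them, against 22.9%. eIF3a replicate 1 held 5 of the 7, against 40.4% of all protein coding genes, and NDUFAF3, NDUFAF4 and NDUFAF6 were found nowhere else. With 7 genes, these differences from the background were not tested. The NDUFAF4 peak, in its 3′ UTR, was 14.9-fold. Among 51 electron carriers and assembly factors outside the symbol rule, 33 had a peak, and METTL16 bound 6, eIF3a 9 and eIF3b 15. Among 11 nuclear regulators of respiratory genes, such as NRF1, PPARGC1A and ESRRA, 10 had a peak, and METTL16 bound 5, eIF3a 6 and eIF3b 6. The median mRNA was 1741 bases in the first list and 4609 bases in the second.

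Complex II, which oxidises succinate, had peaks in SDHA and SDHC and none in SDHB and SDHD. SDHA, the flavoprotein subunit, was bound by METTL16 and eIF3b at the same exon junction in its coding sequence. The fold enrichment there was 1.77 and 4.27 in the METTL16 replicates, 1.44 in eIF3a replicate 1, and 1.77 and 1.56 in the eIF3b replicates, with 120 bases common to the 5 peaks. METTL16 replicate 2 was the highest of the 5 for SDHA, as it was for NDUFB11. SDHC was bound by eIF3a and eIF3b, but 7 of its 8 peaks had no base on an annotated exon of the gene in GENCODE release 44, and they lay on the same strand between chr1:161363222 and chr1:161364237, downstream of the annotated end of the gene at chr1:161363206. The highest of these was 19.1-fold in METTL16 replicate 2, and the eIF3 lists ranged from 2.29-fold to 6.86-fold there.

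Complex III, which passes electrons from ubiquinol to cytochrome c, had a peak in 8 of 9 genes. UQCR11 was bound by METTL16, with a peak centred 703 to 718 bases after the stop codon in both replicates (2.27-fold and 2.52-fold) and in eIF3a replicate 1 (2.04-fold). UQCRH, the hinge protein gene, carried an identical 208-base peak in METTL16 replicate 1 (2.11-fold) and both eIF3b replicates (2.00-fold and 1.79-fold). Its single-exon copy UQCRHL is identical to it at 272 of 276 coding bases (98.6%) and carried peaks over the same part of the coding sequence in METTL16 replicate 1, eIF3a replicate 1 and eIF3b replicate 2, so both genes may share reads and their values are uncertain. UQCRC1, UQCRFS1 and UQCRQ were found in METTL16 replicate 2 only, and UQCRC2 in eIF3a replicate 2 only, as a 658-base peak over 7 exons (2.16-fold). eIF3a bound none of the 9.

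Complex IV, cytochrome c oxidase, had a peak in 7 of 19 genes and was the complex with the fewest bound genes, 1, which was COX4I1. This gene for a regulatory subunit had 1.55-fold and 2.69-fold peaks in the METTL16 replicates, 1.25-fold in eIF3a replicate 1 and 1.29-fold in eIF3b replicate 1, and the METTL16 replicate 2 peak covered 526 of its 763 mRNA bases. COX5A and COX5B were found in METTL16 replicate 2 only, COX6A1 also in eIF3a replicate 1, and COX6B1 also in eIF3a replicate 1 and eIF3b replicate 2, at 1.24-fold to 1.85-fold. NDUFA4L2 had a 15.1-fold peak in eIF3b replicate 1 only, and COX7A2L, a supercomplex assembly factor, a 14.9-fold peak in eIF3a replicate 1 that lay on no annotated exon of the gene. The genes without a peak were both the tissue-specific isoform genes COX4I2, COX6A2, COX6B2, COX7A1, COX7B2 and COX8C and the widely expressed COX6C, COX7A2, COX7B, COX7C, COX8A and NDUFA4.

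Complex V had a peak in 10 of 18 genes. METTL16 bound 4 of them, ATP5F1B, ATP5F1D, ATP5MC3 and ATP5PB, eIF3a bound ATP5MC3 and eIF3b bound ATP5F1D and ATP5PB. ATP5F1B, the catalytic beta subunit, was the only member bound by 1 protein with no peak in any list of the others, and its METTL16 peaks were among the weakest, at 1.27-fold over 120 bases and 1.21-fold over 180 bases, overlapping at chr12:56639124-56639243 near the end of the coding sequence. ATP5F1D, the delta subunit, reached 2.03-fold and 3.73-fold in the METTL16 replicates and 1.69-fold and 1.66-fold in the eIF3b replicates, whose peaks lay at the 3′ end. ATP5F1C, the gamma subunit, was found in eIF3a replicate 2 only, as a 733-base peak over 7 exons (1.95-fold), the widest of any member.

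ATP5MC3 encodes the membrane ring subunit c, and its peaks lay at both ends of the mRNA. The METTL16 peaks lay in the 5′ UTR (4.77-fold) and over the start codon and 4 exons (1.92-fold). Peaks at the 5′ end were also found in eIF3a replicate 1 (4.06-fold) and eIF3b replicate 2 (3.23-fold). Peaks centred 1147 to 1671 bases after the stop codon were found in eIF3 lists only, at 10.7-fold and 3.00-fold in eIF3a replicate 1, 2.86-fold in eIF3a replicate 2 and 6.61-fold in eIF3b replicate 2, and eIF3b replicate 1 held no peak on the gene. ATP5PB, the b subunit of the peripheral stalk, had both kinds of peak in the METTL16 and eIF3b lists. A coding peak near the stop codon was 1.48-fold and 1.37-fold in the METTL16 replicates and 1.35-fold in eIF3b replicate 2, while a 3′ UTR peak centred 761 to 864 bases after the stop codon was 18.5-fold in METTL16 replicate 1, 24.8-fold in eIF3a replicate 1 and 27.5-fold and 22.0-fold in the eIF3b replicates. This 3′ UTR peak was repeat-dense in each of these lists.

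DMAC2L, a mitochondrial protein once named as ATP synthase factor s, was the only member with a peak in all 6 lists. Its 3′ UTR peak was 7.28-fold and 11.9-fold in the METTL16 replicates, 6.02-fold and 2.74-fold in the eIF3a replicates, and 25.3-fold and 6.36-fold in the eIF3b replicates, with 90 bases at chr14:50326109-50326198 common to the 6. The 3 proteins overlapped in their values, and the peak was repeat-dense in all 6 lists. DMAC2, an assembly factor of complex I, was bound by METTL16 (1.86-fold and 3.31-fold) and stood in eIF3b replicate 1 (1.45-fold) at the stop codon. The readthrough gene ATP5MF-PTCD1 was bound by METTL16 and eIF3b, but its exons overlap those of PTCD1, so its peaks may belong to that gene.

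**Figure D2:**
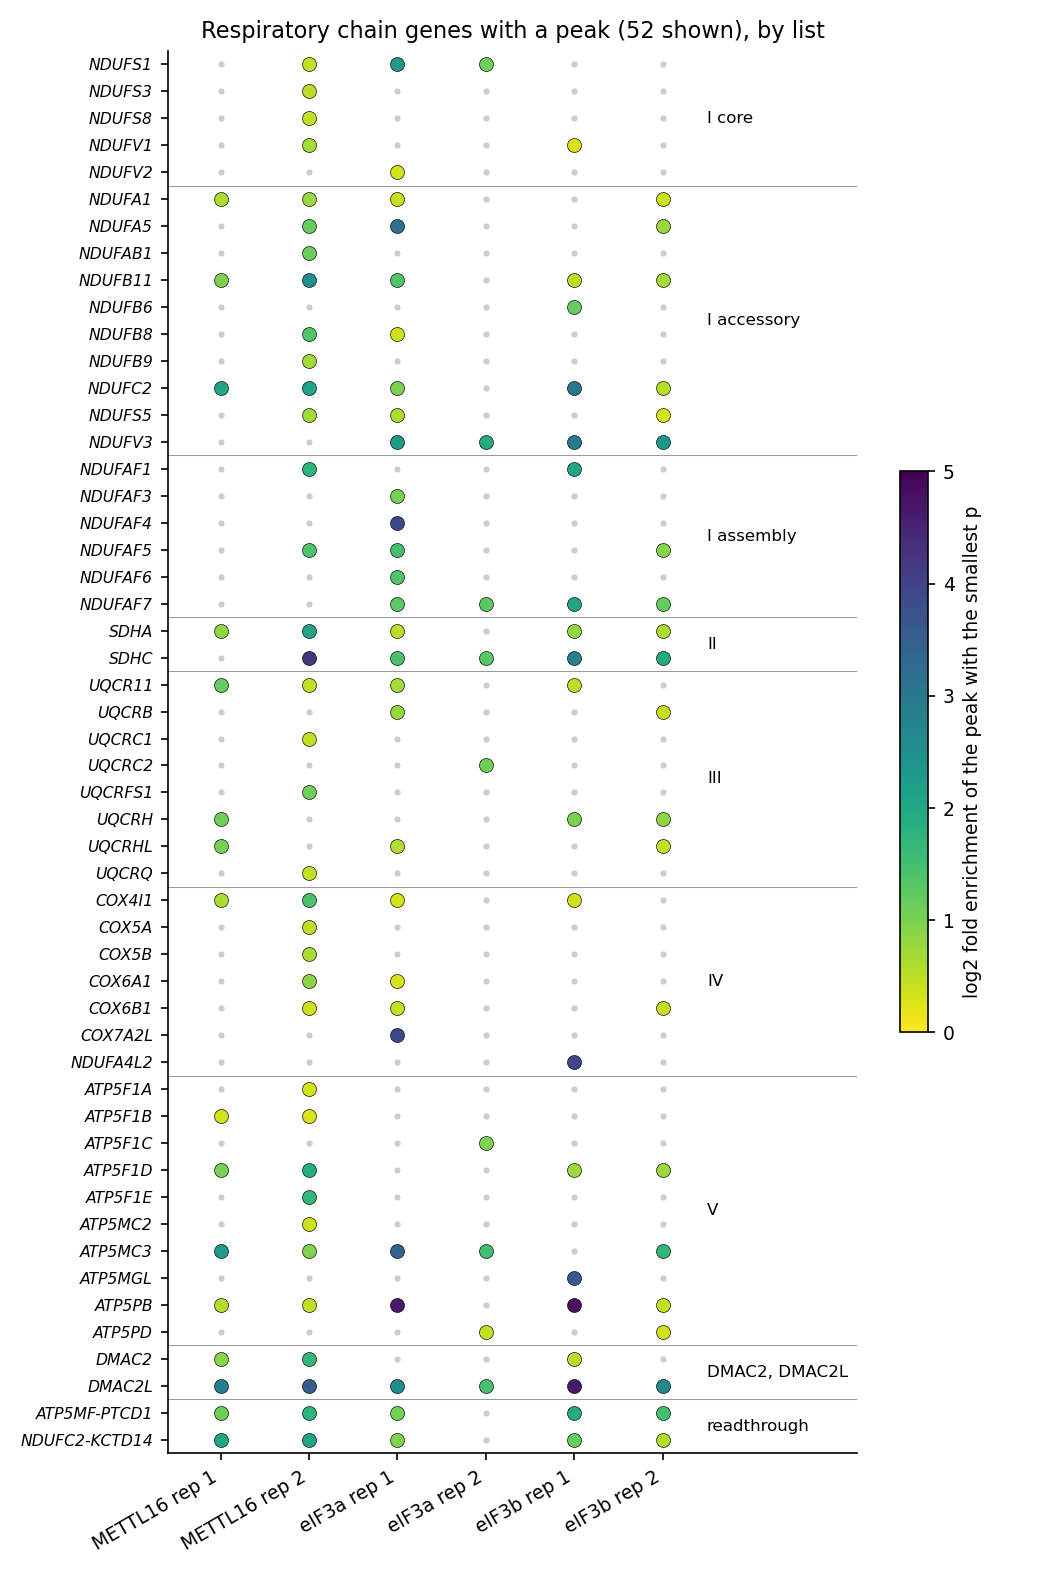
Respiratory chain genes with a peak (52 rows, current symbols, grouped by complex or role at the right) against the 6 lists (columns). Large points mark a peak and are coloured by the log2 fold enrichment of the peak with the smallest p, and small grey points mark no peak. Peaks of METTL16 replicate 2 alone mark 12 genes, and only DMAC2L has a point in every column.

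The 22 genes found in a single list fell mostly to METTL16 replicate 2. That list alone held ATP5F1A, ATP5F1E, ATP5MC2, COX5A, COX5B, NDUFAB1, NDUFB9, NDUFS3, NDUFS8, UQCRC1, UQCRFS1 and UQCRQ. The peaks with the smallest p in these 12 genes were 1.27-fold to 3.29-fold, with a median of 1.42. eIF3a replicate 1 alone held 5 genes, eIF3b replicate 1 alone held ATP5MGL, NDUFA4L2 and NDUFB6, and eIF3a replicate 2 alone held ATP5F1C and UQCRC2. METTL16 replicate 1 and eIF3b replicate 2 alone held none.

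Agreement between replicates was lower for eIF3a than for the other proteins in these genes. The METTL16 replicates shared 15 genes, which were 88.2% of replicate 1 and 40.5% of replicate 2, and in 14 of the 15 the peaks overlapped in position. The eIF3b replicates shared 13 genes (61.9% and 59.1%), 11 of them in position. The eIF3a replicates shared 6 genes (21.4% of replicate 1 and 66.7% of replicate 2), 3 of them in position. By comparison, eIF3a replicate 1 and eIF3b replicate 2 shared 18 genes (64.3% and 81.8%), more than any other pair of lists from different proteins but METTL16 replicate 2 and eIF3a replicate 1, which shared 19 (51.4% and 67.9%). Over all protein coding genes the eIF3a replicates shared 56.4% of replicate 1 and 88.0% of replicate 2, and the METTL16 replicates 79.1% and 72.9%.

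Genes bound by METTL16 in this group were seldom bound by both eIF3 subunits. Of the 15, 1 was bound by all 3 proteins (6.67%, Wilson interval 1.19% to 29.8%), DMAC2L, whereas of all 4582 genes bound by METTL16, 59.3% were. Whether or not the third protein bound the gene, the overlap with eIF3b was 9 of 15, against 85.6%, and with eIF3a 2 of 15 (13.3%), against 61.2%. The 15 include NDUFC2-KCTD14, which repeats the NDUFC2 signal, the readthrough gene ATP5MF-PTCD1, and DMAC2 and DMAC2L. All of these but DMAC2 are also among the 9. With structural subunits only, and without DMAC2, DMAC2L and UQCRHL, 11 remained and none was bound by all 3. A low share was also found in short mRNAs at large, where 63 of the 438 genes bound by METTL16 were bound by all 3 proteins, 66 by eIF3a as well and 268 by eIF3b as well. In longer mRNAs the share was 1 of 9 members, against 2652 of 4144 genes. It was 4 of 17 in mitochondrial ribosomal protein genes and 7 of 20 in proteasome genes. The eIF3a count in members rests on replicate 2, which held 9 members. When that sample was left out and a peak in eIF3a replicate 1 was used instead, the share bound by all 3 rose to 46.7%, and when repeat-dense peaks, described below, were left out it was 0.

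Peaks on respiratory chain genes were narrower than those of all protein coding genes in 5 of 6 lists, and weaker in all 6. The median width was 176 and 180 bases in the METTL16 replicates, 150 and 121 in the eIF3a replicates, and 178 and 150 in the eIF3b replicates, against 180, 180, 180, 210, 210 and 181 over all protein coding genes. Peaks on short members had median widths of 204.5, 201, 134, 121, 147.5 and 146.5 bases in the same order, on 5 to 21 peaks each. Over short protein coding genes the medians were 178, 202, 151, 150.5, 180 and 178. Short members thus lay above the short background in METTL16 replicate 1 and near it in METTL16 replicate 2. Over all lists the median width of member peaks was 150 bases, with a range of 58 to 733, against 181. The median fold enrichment was 2.06 and 2.14 for METTL16, 2.48 and 2.45 for eIF3a, and 2.3 and 1.81 for eIF3b, against 3.09, 3.40, 2.98, 2.73, 3.20 and 2.94. Of the 172 peaks, 72 were under 2-fold (41.9%), against 20.3% of all peaks and 31.5% of those on short mRNAs.

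The width differed most between METTL16 (178 ± 2.83 bases, SD, n = 2) and eIF3a (136 ± 20.5), and the samples did not overlap, but the exact permutation p was 0.333 (adjusted over the 3 pairs 0.667). Under the 5000 peaks with the smallest p in each list, this difference turned round, to −69.0 bases. In genes with a peak, peaks covered a median of 11.1% and 13.4% of the mRNA in the METTL16 replicates, 10.6% and 4.08% in the eIF3a replicates, and 9.62% and 13.5% in the eIF3b replicates, against 9.40% (METTL16 replicate 1) to 13% (eIF3b replicate 1) over all genes. The width and cover of eIF3a replicate 2 rest on 11 peaks in 9 genes. Over all 6 lists together, peaks covered 17.2% of the mRNA in the median member with a peak, against 21.8% in the median gene, and 33.8% in the median short member, against 27.2% in the median short gene.

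METTL16 peaks on these genes lay in the coding sequence more often than eIF3 peaks did in these samples. In the METTL16 replicates 57.1% and 80.0% of member peaks had their centre in the coding sequence, in the eIF3a replicates 46.3% and 45.5%, and in the eIF3b replicates 41.7% and 53.3%. These shares rest on 21 and 45, 41 and 11, and 24 and 30 member peaks. The eIF3a replicate 2 share was only 5 of 11 peaks, so the small SD of eIF3a below gives no measure of precision. Both METTL16 values lay above all 4 eIF3 values. The means were 68.6% ± 16 (METTL16), 45.9% ± 0.627 (eIF3a) and 47.5% ± 8.25 (eIF3b) for SD and n = 2 each, and the differences of 22.7 and 21.1 percentage points had an exact permutation p of 0.333, the smallest possible, and 0.5 after adjustment. The difference from eIF3a shrank to 2.98 points with the 5000 peaks of smallest p per list, to 7.07 points when bases were counted and to 14.3 points at 4-fold or more. Without METTL16 replicate 2 the differences were 11.2 points from eIF3a and 9.64 points from eIF3b, and without METTL16 replicate 1 they were 34.1 and 32.5 points. Over all protein coding genes the same shares were 60.7% and 68.3%, 56.5% and 57.7%, and 60.6% and 57.3%. The mean GC content of member peaks was 58.0% and 57.4% for METTL16, 51.6% and 46.6% for eIF3a, and 57.9% and 52.9% for eIF3b, so that it differed between METTL16 and eIF3a while eIF3b replicate 1 lay with METTL16. Peaks of all protein coding genes also had a higher GC content for METTL16 than for eIF3a. Their means were 59.0% and 60.7%, 53.6% and 53.1%, and 58.0% and 54.1%, in the same order. The part of GC content in the result was not tested.

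Member peaks lay nearer the 5′ end than peaks in general. The first 20% of the mRNA held 27.9% of the METTL16, 34.9% of the eIF3a and 32.6% of the eIF3b peaks, against 26.0%, 21.3% and 24.8% over all genes and 23.8%, 22.2% and 24.3% over short genes. The last 20% held 4.92%, 6.98% and 15.2%, against 11.9%, 15.1% and 13.5% over all genes and 7.64%, 11.6% and 10.4% over short genes. The eIF3b share there thus lay above both backgrounds. In members with a peak, 60.7% of mRNA bases were 3′ UTR, against 48.4% over all genes with a peak. On short mRNAs these shares were 34.8% and 29.2%. The part of 3′ UTR length in the relative positions was not tested. The median relative position was between 0.322 and 0.396 in the 6 lists, with 0 the mRNA's start and 1 its end, against 0.394 to 0.461 over all genes, and no pair of proteins differed beyond the spread (exact permutation p = 1 for each of the 3 pairs). Start codons lay under 32 of 172 member peaks (18.6%), in 17 genes, against 7.27% of all peaks and 20.5% of peaks on short mRNAs. The 32 include the first-exon peaks of NDUFC2 and of NDUFC2-KCTD14, in 5 lists each, which lay over the same start codon. Stop codons lay under 15 (8.72%), against 8.11% and 19.0%.

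**Figure D3:**
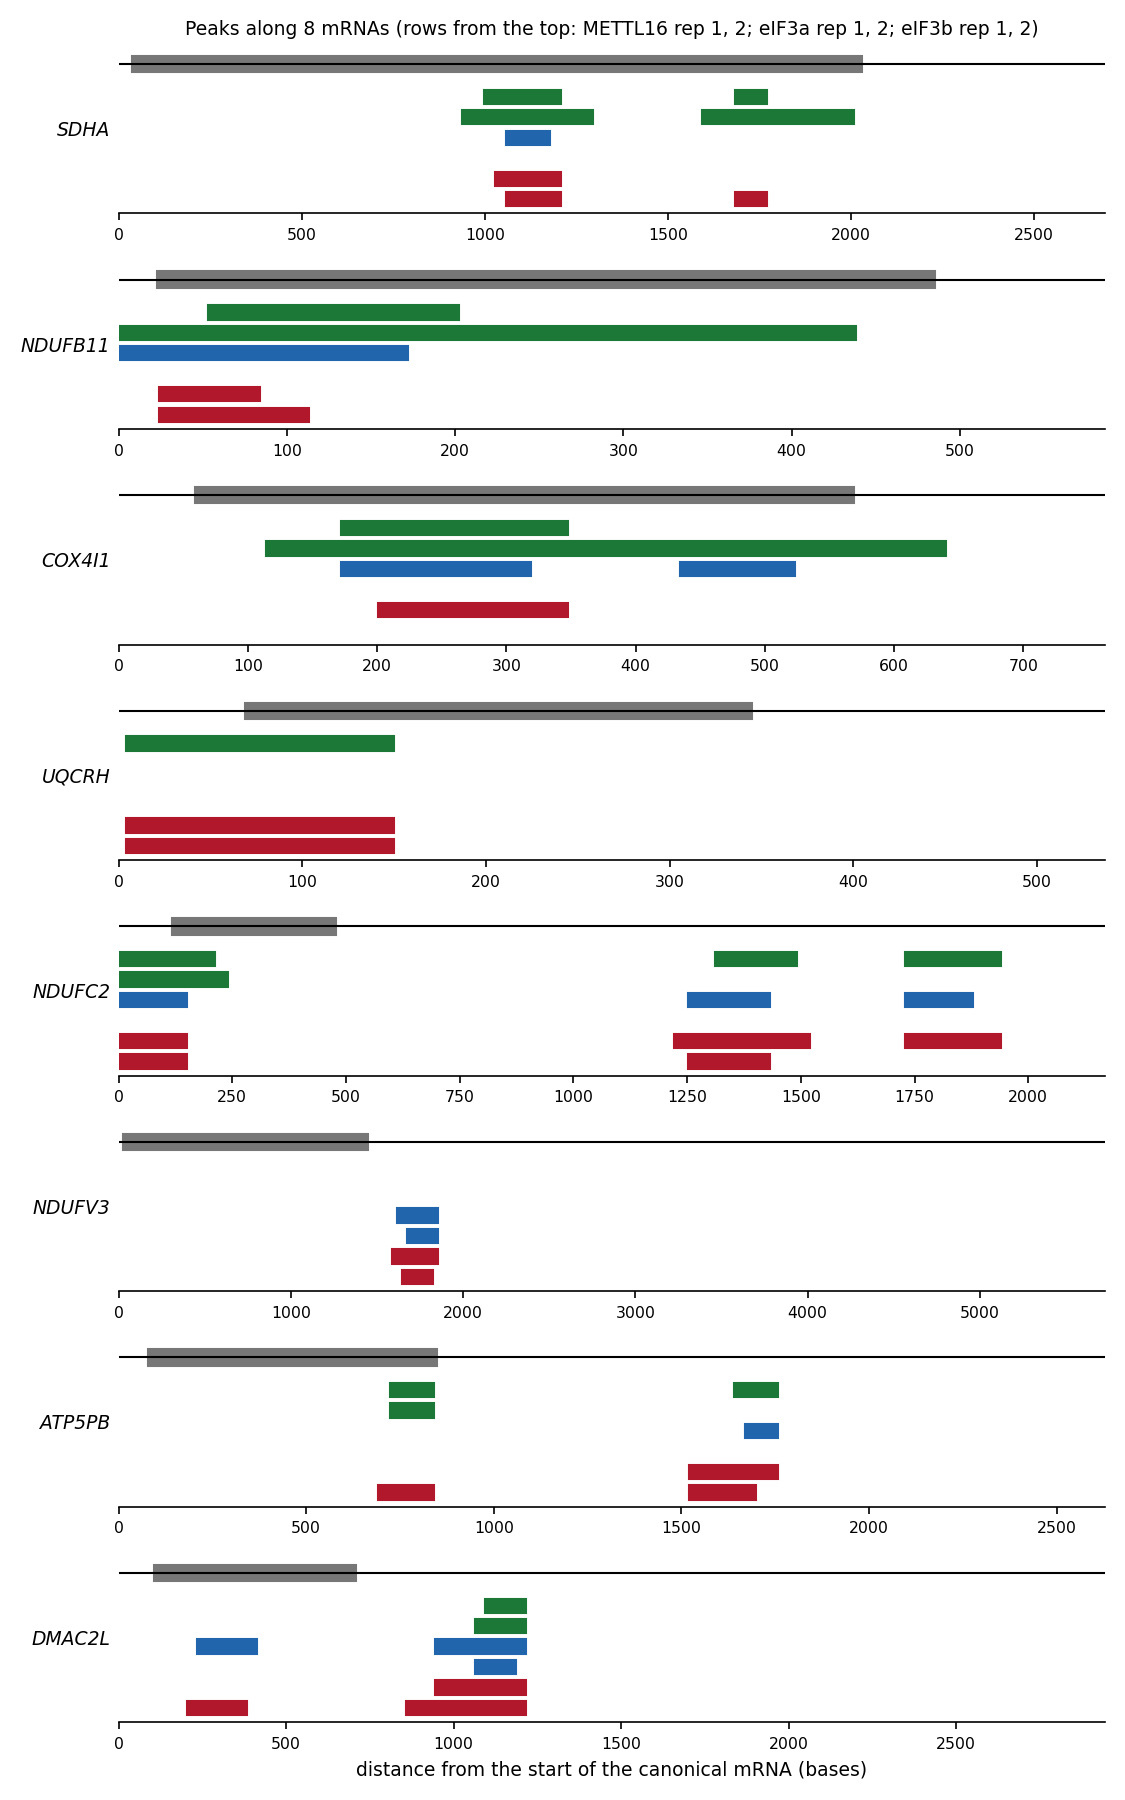
Peaks along 8 canonical mRNAs, with the distance from the mRNA's start in bases on the x axis, a separate scale for each gene, the mRNA as a line and the coding sequence as a grey box. Each row of bars is 1 list, METTL16 in green, eIF3a in blue and eIF3b in red, and a bar runs from the first to the last base of a peak on the mRNA. NDUFB11 and UQCRH have peaks at the 5′ end, SDHA in the coding sequence, NDUFV3 in the 3′ UTR of the 4 eIF3 lists, and NDUFC2 at 3 positions.

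Coding peaks of these genes were weak, and the 3′ UTR peaks were not. The 98 coding peaks, in 43 genes, had a median fold enrichment of 1.66 and a maximum of 5.72, and 2 of them reached 4-fold (2.04%), on NDUFB11 and SDHA. Over all protein coding genes the coding median was 2.81, with 30.4% at or above 4-fold, and on short mRNAs 2.47, with 27.3%. The 42 peaks of the 3′ UTR, in 16 genes, had a median of 4.88, and 24 reached 4-fold (57.1%), against a median of 3.35 and 40.2% over all genes. This order held in each of the 6 lists, with coding medians of 1.77, 1.66, 1.54, 2.13, 1.61 and 1.59 and 3′ UTR medians of 7.28, 2.92, 4.81, 2.86, 7.78 and 4.41. Where a gene had both kinds of peak in 1 list, which was so for 10 pairs of gene and list in 6 genes, the 3′ UTR peak was the higher in 9, by a median ratio of 2.61, against 59.6% and 1.18 over all genes. The 3′ UTR peaks in the pairs of ATP5PB (ratios 12.5 and 16.3, the largest) and DMAC2L (2.43 and 2.80) were repeat-dense, as described below.

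The 16 genes with a 3′ UTR peak had longer 3′ UTRs, with a median of 1734.5 bases, against 169 bases in the other 37 members and 143 bases in the 45 relatives without a peak. The centres of these peaks lay a median of 680 bases after the stop codon, from 8 to 1671. The 10 peaks centred in 5′ UTRs had a median of 3.71-fold, and 5 of them were the first-exon peak of NDUFC2. A further 22 peaks in 8 genes had their centre outside the canonical mRNA (12.8%, against 1.67% of all peaks), with a median of 4.09-fold. Of these 22, 9 lay mostly on other annotated exons of the gene and 13 on none. SDHC held 7 of the 22 and NDUFC2-KCTD14 held 5.

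Many of the strong 3′ UTR peaks lay in repeated sequence. For each peak, the share of its 13-base words that occur at least 20000 times in GRCh38, on both strands, was counted. This share was 24.7% or more in 23 member peaks, called repeat-dense here, and 10.3% or less in the other 149. The limit of 20% was set in that gap after the values were seen, and with a limit of 50% 13 peaks remained. Of the 42 peaks of the 3′ UTR, 22 were repeat-dense (52.4%), in the 5 genes ATP5PB, DMAC2L, NDUFAF7, NDUFC2 and NDUFV3, against 14.8% of 3′ UTR peaks over all genes and 6.42% on short mRNAs. No coding peak of a member was repeat-dense.

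Of the 24 member peaks of the 3′ UTR at or above 4-fold, 18 were repeat-dense. The 22 repeat-dense 3′ UTR peaks had a median of 6.30-fold, and the other 20 had a median of 2.67-fold, with 6 at or above 4-fold, against 3.14-fold and 35.2% for the 3′ UTR peaks of all genes that were not repeat-dense. Without repeat-dense peaks METTL16 bound 14 members, eIF3a 4 and eIF3b 9, and DMAC2L, with its 3′ UTR peak removed, no longer stood in all 6 lists. Coding peaks kept their median of 1.66. The repeat family was not annotated here, how reads with several matches were treated is not given in the sources used here, and the part of mapping in these peaks was not tested.

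**Figure D4:**
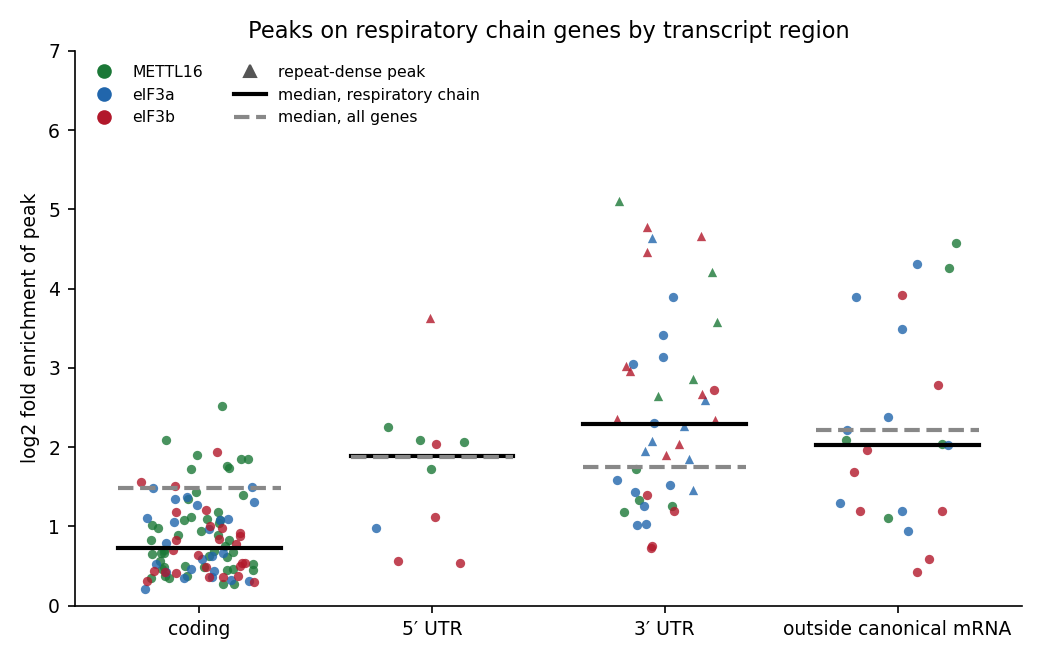
Log2 fold enrichment (y axis) of the 172 peaks on respiratory chain genes by the transcript region of their centre (x axis), with METTL16 in green, eIF3a in blue and eIF3b in red, and triangles for repeat-dense peaks. Solid lines are medians of the member peaks and dashed lines those of all protein coding genes, both over the 6 lists. Coding peaks lie low (median 1.66-fold against 2.81-fold), and 18 of the 24 peaks of the 3′ UTR at or above 4-fold are triangles.

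Of 8 hepatic marker genes, 7 had a peak in at least 1 list, with none on TTR, against 53.5% of all protein coding genes. ALB had a peak in METTL16 replicate 2 only, and AFP and TF in the METTL16 lists only. A peak is an enrichment over input and gives no level, so the identity of the line was not tested by these files, and a gene without a peak may be unexpressed, too lowly expressed to test or not enriched.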

How the data were processed

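The authors aligned reads with STAR (GRCh38) and used exomePeak, at its defaults, to find exonic stretches enriched over input. Versions, the annotation and the pairing of RIP with input are not given in the sources used here. The authors deposited, per peak, its exonic blocks, a gene name, a p-value, a score in log10 units (for the raw and adjusted p) and the fold enrichment, a ratio of RIP to input. Starts were counted from 0 in the files and are printed from 1. Of 10830 names, 10325 matched a current GENCODE 44 symbol, 443 an older one and 62 none. ATP5IF1 and NDUFAF8 had peaks under older names outside the symbol rule and were left out. Peaks were placed by their centre on the canonical transcript. Of 172 member peaks, 151 lay mostly on it. Proteins were compared with exact two-sided permutation tests on list values (2 against 2), adjusted by Benjamini-Hochberg over 3 pairs for each of 5 measures. The placement code was tested on simulated data. Python 3.11.15, numpy 2.4.6, pandas 2.3.3, scipy 1.17.1 and matplotlib 3.10.9 were used.

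The members and lists were chosen with earlier results of these data known. Genes named by rule were those in all 6 lists, those bound by 1 protein alone, and the 5 bound members per protein with the highest mean log2 fold enrichment of their best peak. Other members were named by role, after their values were seen, and start codon windows of some genes named by the rule are not shown. The individual values of 1 member are not reported here. Alternatives were peaks of at least 4-fold, the 5000 peaks with the smallest p, structural subunits only, a peak in either replicate, each sample left out, the replicate block, other denominators and exon sets, bases or the highest peak in place of centres, and, added after seeing the data, the omission of repeat-dense peaks and of DMAC2, DMAC2L and UQCRHL.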

Additional observations from a re-analysis of the deposited data

How the results depend on the processing

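For 19 results, 199 alternative values were computed. Of these 152 kept direction or stayed near the reported value, 28 turned direction and 19 moved, and no comparison of proteins could pass 0.05 in this design, so the permutation tests say nothing about stability. With the replicate block (same-number pairs) the differences are the same by construction, such as 22.7 points of coding share for METTL16 minus eIF3a, with a smallest possible p of 0.5. The labels tie the numbers to no shared culture, and with 2 pairs the pairing could not be checked further. Peak lists without counts also leave the depth unknown.

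At 4-fold or more, the share with a peak turned to −0.510 points for METTL16 minus eIF3a and −1.02 for METTL16 minus eIF3b, mRNA cover to −0.954 for METTL16 minus eIF3b and position to −0.0463 for METTL16 minus eIF3b, and METTL16, eIF3a and eIF3b bound 3, 0 and 3 members. No position could be given for the pairs with eIF3a there, since no eIF3a replicate 2 peak of at least 4-fold lay on a canonical mRNA. With 5000 peaks per list they bound 9, 0 and 1, eIF3a minus eIF3b turned to 3.57 points of share, 98.2 bases of width, 12.5 points of coding share and 0.0134 of position, and METTL16 minus eIF3a to −69.0 bases of width. The share of members bound by METTL16 that all 3 proteins bound was 0 in both settings, 0 without repeat-dense peaks and 0 without DMAC2, DMAC2L and UQCRHL (both added after seeing the data), and 43.6% with a peak in either replicate, when 39, 31 and 30 members were bound. The union of exons turned cover to −0.199 for METTL16 minus eIF3b. Counting bases turned the coding share of eIF3a minus eIF3b to 20.3 points and the highest peak per gene to 2.78, and the latter turned position to −0.0312, −0.00984 and 0.0214 for the 3 pairs. Position of eIF3a minus eIF3b was 0.0113 for structural subunits without DMAC2, DMAC2L and UQCRHL and 0.0758 without repeat-dense peaks. The causes were not tested.

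With 1 replicate left out, the bound count became 17 to 37 for METTL16, 9 to 28 for eIF3a and 21 to 22 for eIF3b, since 1 list then decides the call, and the share bound by all 3 ran from 5.41% to 46.7%. For METTL16 minus eIF3a, METTL16 minus eIF3b and eIF3a minus eIF3b, the share with a peak ran from −1.53 to 18.9, −4.59 to 15.8 and −12.8 to 6.63 points, and position from −0.0258 to 0.0487, −0.0134 to 0.0300 and −0.0404 to 0.0340. Cover ran from −1.22 to 2.63 for METTL16 minus eIF3b, and the coding share from −7.44 to 4.23 for eIF3a minus eIF3b. The coding share of METTL16 minus that of eIF3a ran from 11.2 to 34.1 points, and minus that of eIF3b from 9.64 to 32.5. Across the other alternatives it ran from 2.98 (5000 peaks per list) to 31.2 points against eIF3a, with 7.07 when bases were counted, and from 14.3 to 27.8 against eIF3b.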
